A study of Mus musculus with 24 samples.

Results

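The collagen genes were compared between Nipbl+/- and wild type hindlimb buds of E10.5 mouse embryos, a stage given in days of gestation. A gene was taken as a member when its probe set carried a single symbol of the form Col, a number, the letter a and a number, and for a gene with more than 1 such probe set the brightest over all arrays was used. This gave 44 genes from 46 probe sets, out of 19937 genes measured; Col6a5 and Col6a6 were the genes with a second probe set. They fell into 11 fibrillar collagens, 9 FACITs (fibril-associated collagens with interrupted triple helices), 6 chains of the basement membrane collagen IV and 18 others. The Nipbl+/- group held 12 embryos of the RRS strain, heterozygous for a mutation of Nipbl, the gene for the protein that loads cohesin onto chromosomes. The wild type group held 12 stage-matched littermate embryos, and which embryos shared a litter is not given. RNA from the left and right hindlimb buds of each embryo went onto its own Affymetrix Mouse Gene 1.0 ST array, and every level below is the deposited log2 intensity of a probe set.

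Collagens are built from 3 chains wound into a triple helix, and most are secreted and assembled in the extracellular matrix. Fibrillar collagens form the ropes that give tissue its tensile strength, FACITs sit on the surface of those fibrils, and type IV collagen forms the sheet under epithelia and around vessels. In the early limb bud the mesenchyme makes a loose matrix with type I and type III collagen, and the condensing cartilage then switches on types II, IX and XI.

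Nipbl itself was lower in Nipbl+/- buds, at 0.630 times the wild type level (adjusted p = 2.4e-09, limma), with no overlap between the groups. Array medians lay between 7.24 and 7.39, and no 2 arrays were identical. The sexes were unequally divided, as read from Xist and 3 Y-linked genes, with 3 female and 9 male Nipbl+/- embryos and 8 female and 4 male wild type embryos. Wild type embryo 3 had an intermediate Xist level of 7.71 together with a male Y-linked mean of 8.89, and it stood with Nipbl+/- embryo 2 at one end of the first component of residual variance. In wild type embryos 1, 4, 6 and 11, Dcn, a proteoglycan of collagen fibrils, lay between 8.10 and 9.46, above the 7.56 that was the highest among the other 20 embryos, and Lum, a related proteoglycan, lay between 6.89 and 8.45, against at most 6.37 elsewhere. The members with the clearest differences are given below with and without wild type embryos 1, 4, 6 and 11. Only Col10a1 and Col19a1 had mean levels under 6.32, the 95th percentile of 1015 olfactory receptor genes, which serve here as genes not expected in limb buds.

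Expression of most collagen genes differed little between genotypes, and those with the clearest differences were all lower in Nipbl+/- buds. Col12a1, a FACIT of dense connective tissue, and Col23a1, a transmembrane collagen, fell at an adjusted p under 0.05 (limma, Benjamini-Hochberg over all genes), and no collagen rose. That made 2 of 44 members called lower (4.55%), beside 0.527% of all genes called lower, and 0 of 44 called higher, beside 0.286% of all genes called higher. At an unadjusted p under 0.05, 9 members were lower (20.5%) and 0 were higher, where all genes gave 5.14% lower and 4.13% higher. At the wider level of an adjusted p under 0.25, 6 members were lower (13.6%, beside 1.91% of all genes) and 0 higher (beside 1.21%). The difference was below 0 for 35 of the 44 (79.5%), against 53.5% of all genes, and the median log2 difference was -0.044 over the collagens and -0.0049 over all genes. Without wild type embryo 3 the median over the collagens was -0.028, without Nipbl+/- embryo 2 it was -0.065, and without both it was -0.048. Without wild type embryos 1, 4, 6 and 11 it was -0.027. Apart from Col12a1 the differences were small, between -0.28 and 0.059, and the standard errors of the 44 lay between 0.030 and 0.10. In whole buds, fewer cells of a type and less RNA per cell cannot be told apart.

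**Figure D1:**
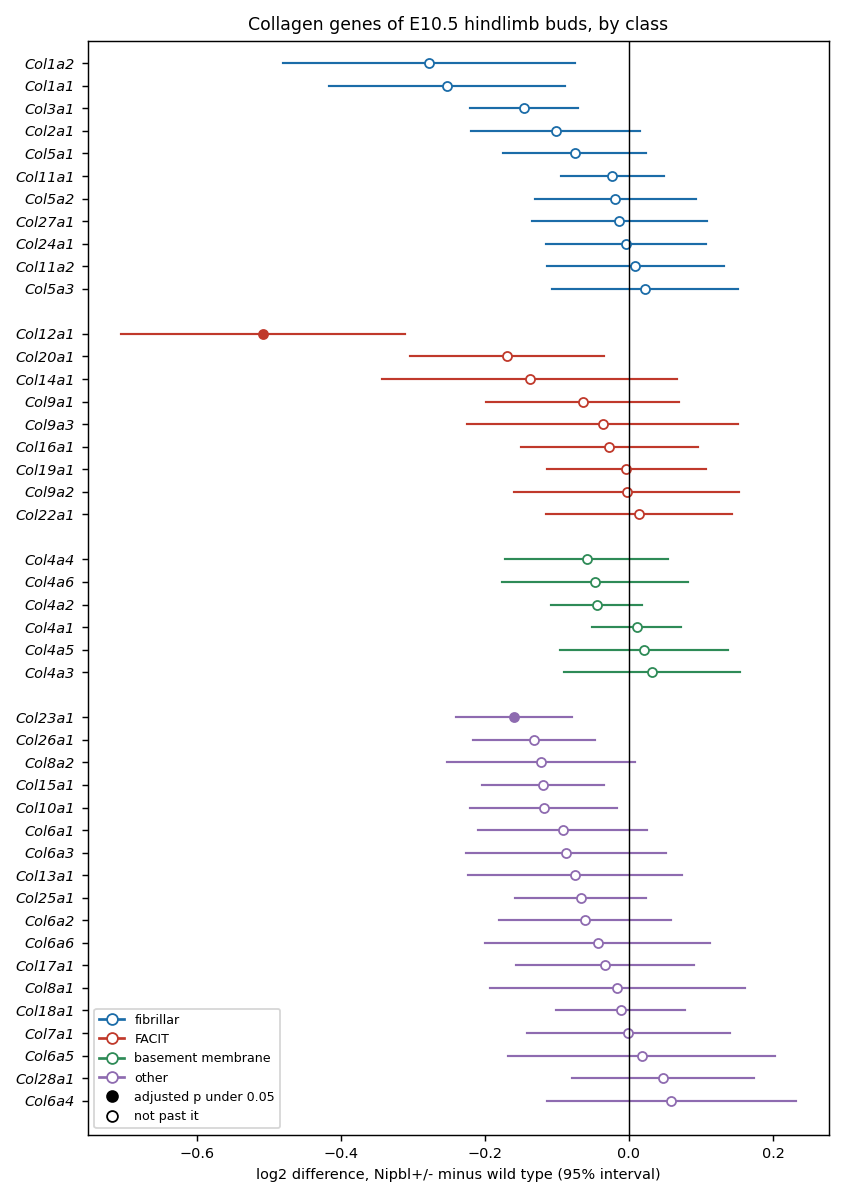
Log2 difference, Nipbl+/- minus wild type, of each of the 44 collagen genes with its 95% interval (limma, 12 embryos per group), arranged by class; filled points passed an adjusted p under 0.05. Col12a1 lies at -0.51, apart from all other members, and the 9 intervals that do not reach 0 all lie on the lower side.

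**Figure D2:**
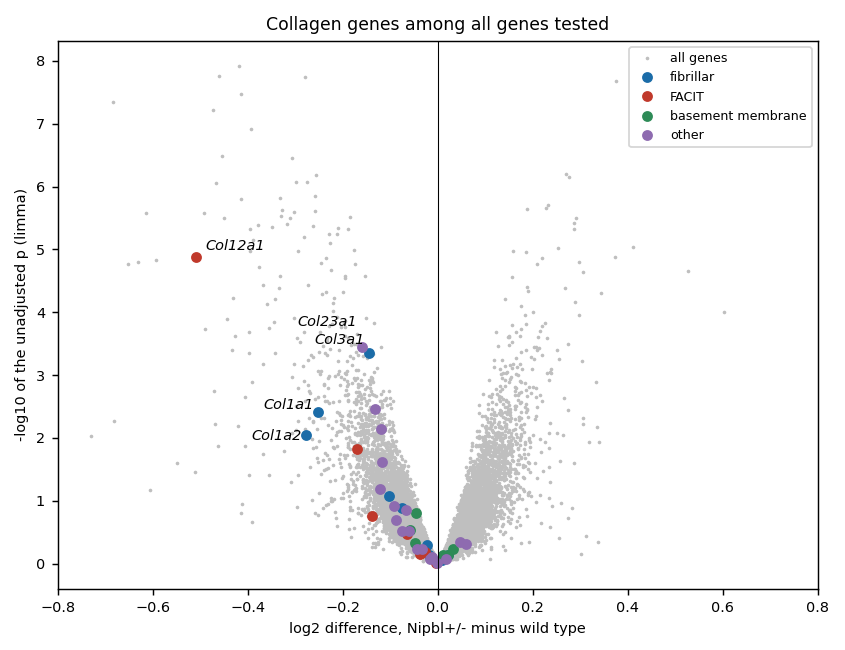
The same difference for all genes tested (gray) and for the collagen genes by class (color), against -log10 of the unadjusted limma p, with 10 genes outside the frame. The 5 labelled collagens are Col12a1, Col23a1, Col3a1, Col1a1 and Col1a2, all on the lower side.

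Among the fibrillar collagens, 0 of 11 passed an adjusted p under 0.05 in limma, beside 0.527% of all genes lower and 0.286% higher. At an unadjusted p under 0.05, 3 were lower (27.3%, beside 5.14% of all genes) and 0 higher (beside 4.13%). These 3 were the chains of collagen types I and III, the main fibrils of soft connective tissue and bone. In Col3a1, the single chain of type III collagen, levels ran from 9.02 over a median of 9.16 to 9.24 in Nipbl+/- buds, against 9.11, 9.31 and 9.43 in wild type buds. All 12 Nipbl+/- embryos lay below the wild type mean, and 10 of 12 wild type embryos lay above the highest Nipbl+/- embryo. The log2 difference was -0.15 ± 0.037 (SE), a ratio of 0.904, and it missed the threshold (adjusted p = 0.0526). Over 13 settings of the analysis it was called in 5, with adjusted p between 0.0206 and 0.437.

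The type I chains had larger differences and a wider spread. Col1a1, the gene of the alpha 1 chain, ran from 8.54 over 8.83 to 8.94 in Nipbl+/- buds, against 8.64, 9.03 and 9.44 in wild type buds. Every Nipbl+/- embryo lay below the wild type mean, and the wild type embryos were the more spread out, with an SD of 0.15 in Nipbl+/- and 0.26 in wild type buds. The difference was -0.25 ± 0.080 (SE), a ratio of 0.840, with an adjusted p of 0.187. Col1a2, the gene of the alpha 2 chain, ran from 8.80 over 9.40 to 9.64 in Nipbl+/- buds, against 9.05, 9.62 and 9.91 in wild type buds. The groups overlapped over most of their ranges. The difference was -0.28 ± 0.099 (SE), a ratio of 0.825, with an adjusted p of 0.265.

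The Col1a1 difference was smaller without the embryos that stood apart in Dcn and Lum. Col1a1 lay between 9.06 and 9.44 in those 4 wild type embryos and between 8.64 and 9.07 in the other wild type embryos. Without the 4 embryos the Col1a1 difference was -0.12 (adjusted p = 0.869), that of Col1a2 was -0.23 (adjusted p = 0.763) and that of Col3a1 was -0.12 (adjusted p = 0.437). That setting was chosen after the values were seen, and it has fewer wild type embryos. Over all genes it gave 38 lower and 18 higher calls, against 105 lower and 57 higher with all embryos. Whether the fewer calls come from the smaller group or from the embryos left out was not tested. Dcn itself did not pass in the whole comparison (log2 difference -0.41 ± 0.25, SE, adjusted p = 0.681). The part of these 4 embryos in the type I and III differences was not tested further. Among members that did not pass in any setting, leaving them out also gave -0.051 for Col14a1, -0.0067 for Col9a1 and -0.047 for Col6a1, whose values with all embryos follow.

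The other 8 fibrillar genes gave 0 calls, beside 0.527% of all genes called lower and 0.286% higher. At an unadjusted p under 0.05 they gave 0, beside 5.14% lower and 4.13% higher, and their median log2 difference was -0.016. Col2a1, the main collagen of cartilage, had levels between 8.69 and 9.07 with a median of 8.79 in Nipbl+/- buds, against 8.63 to 9.16 with a median of 8.91 in wild type buds. The wild type range enclosed the Nipbl+/- range, and the difference of -0.10 ± 0.057 (SE) had an adjusted p of 0.637. Col5a1 and Col5a2, chains of the type V collagen that starts the assembly of type I fibrils, had differences of -0.075 ± 0.048 and -0.019 ± 0.054 (SE). Col11a1, a chain of the corresponding cartilage fibril collagen, had a difference of -0.023 ± 0.035 (SE), with a 95% interval from -0.095 to 0.048. The remaining members, Col5a3, Col11a2, Col24a1 and Col27a1, lay between -0.013 and 0.022.

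**Figure D3:**
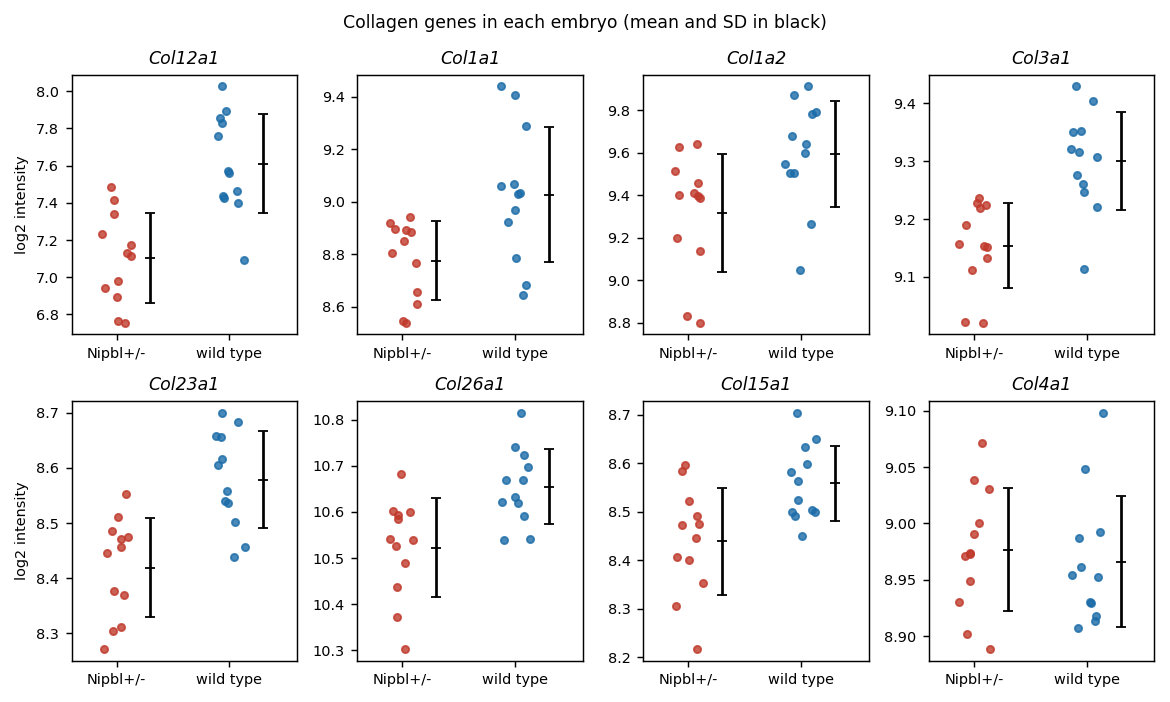
Deposited log2 intensity of 8 collagen genes in each embryo (points), and black bars for the mean and SD by genotype (Nipbl+/- red, wild type blue, 12 embryos each). Col12a1, Col23a1 and Col3a1 are shifted downward in Nipbl+/- buds with overlapping ranges, whereas the Col4a1 ranges coincide.

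The RefSeq promoter table (mouse build GRCm38.p6) held 35 of the 44 collagen genes, and 250 bases before the annotated start are shown for Col23a1, the called gene that has an entry, and for the type I and III chain genes that have one. Capitals mark 3 motifs, searched on both strands. They are CCAAT, which reads as ATTGG on the other strand, then TATAAA, which there reads as TTTATA, and last GGGCGG, which there reads as CCGCCC.
Col23a1 (chr11:51289670-51289919, + strand): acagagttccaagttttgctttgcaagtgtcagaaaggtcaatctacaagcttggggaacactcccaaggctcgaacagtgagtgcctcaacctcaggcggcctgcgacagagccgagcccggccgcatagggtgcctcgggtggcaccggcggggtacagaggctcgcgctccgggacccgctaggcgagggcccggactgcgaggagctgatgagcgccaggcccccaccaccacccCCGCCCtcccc
Col3a1 (chr1:45311288-45311537, + strand): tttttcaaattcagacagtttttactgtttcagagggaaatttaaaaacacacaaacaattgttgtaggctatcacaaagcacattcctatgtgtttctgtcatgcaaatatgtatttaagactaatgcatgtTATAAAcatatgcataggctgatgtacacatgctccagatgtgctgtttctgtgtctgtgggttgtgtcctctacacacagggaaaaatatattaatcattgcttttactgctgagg
Col1a2 (chr6:4505368-4505617, + strand): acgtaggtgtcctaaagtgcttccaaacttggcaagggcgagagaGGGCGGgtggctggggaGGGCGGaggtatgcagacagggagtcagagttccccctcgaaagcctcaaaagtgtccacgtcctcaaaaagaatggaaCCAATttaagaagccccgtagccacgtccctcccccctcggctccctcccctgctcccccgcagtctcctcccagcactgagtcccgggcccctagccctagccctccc
The Col1a2 window held a CCAAT motif 109 to 105 bases before the start and a pair of GGGCGG motifs further upstream, the Col3a1 window held a TATAAA motif, and the Col23a1 window held GGGCGG on the other strand close to the start. The 35 collagen genes had 38 windows in the table. GGGCGG occurred in 22 of these (57.9%), beside 32.7% of all 32851 windows. CCAAT occurred in 13 (34.2%, beside 33.8%), and TATAAA in 5 (13.2%, beside 12.4%). No motif was shared by all 3 windows printed.

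Among the FACITs, 1 of 9 was called lower (11.1%, beside 0.527% of all genes) and 0 higher (beside 0.286%). The called gene was Col12a1, whose product coats type I fibrils in tendon, periosteum and skin. Col12a1 ran from 6.76 over a median of 7.12 to 7.49 in Nipbl+/- buds, against 7.10, 7.57 and 8.03 in wild type buds. All 12 Nipbl+/- embryos lay below the wild type mean, 5 of them below every wild type embryo, and 7 wild type embryos lay above every Nipbl+/- embryo. The log2 difference was -0.51 ± 0.096 (SE, 95% interval -0.70 to -0.31), a ratio of 0.703, with an adjusted p of 0.00432. It passed the threshold in all 13 settings, with differences between -0.57 and -0.50. Without the 4 wild type embryos high in Dcn it was still -0.51, with an adjusted p of 0.0499, and with embryo sex as a covariate it was -0.57 (adjusted p = 0.00427).

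Col14a1, a close relative of Col12a1 whose product also binds the fibril surface, ran from 6.92 over 7.22 to 7.72 in Nipbl+/- buds, against 6.74, 7.39 and 7.73 in wild type buds. The ranges were nearly the same, and the difference of -0.14 ± 0.10 (SE) had an adjusted p of 0.758. Col20a1, a FACIT of the same group, had a difference of -0.17 ± 0.066 (SE), with 10 of 12 Nipbl+/- embryos below the wild type mean and an adjusted p of 0.334. The cartilage FACIT genes Col9a1, Col9a2 and Col9a3, whose chains decorate type II fibrils, had differences of -0.064, -0.0031 and -0.037, each within its standard error of 0. The 8 FACITs other than Col12a1 had a median difference of -0.032. Of these 0 were called, and 1 was lower at an unadjusted p under 0.05 (12.5%, beside 5.14% of all genes).

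Col12a1 was set against its fibril partners by the difference of log2 levels within each embryo, so that an effect common to both probe sets of an array cancels (permutation of genotype over 12 against 12 embryos, two-sided, Benjamini-Hochberg over 6 such differences). Col12a1 was already known to be lower when these pairs were chosen, so the values with Col12a1 describe its size beside the partners and are no independent evidence. Col12a1 minus Col3a1 averaged -2.05 ± 0.21 in Nipbl+/- and -1.69 ± 0.23 in wild type embryos (SD), a difference of -0.36 ± 0.090 (SE, adjusted p = 0.00432 by the permutation test). Against Col1a1 the Col12a1 difference was -0.26 ± 0.11 (SE), and against Col14a1 it was -0.37 ± 0.18 (SE), both with an adjusted permutation p of 0.0564. With embryo sex as a covariate these were -0.34 and -0.53, both with an adjusted p of 0.0159. Col1a1 minus Col1a2 had a difference of 0.026 ± 0.092 (SE, permutation p = 0.78), so a difference between the chains of type I collagen was not detected. Col3a1 minus Col5a2, neighboring genes on chromosome 1, was added after the values were seen. It averaged 1.27 ± 0.11 in Nipbl+/- and 1.39 ± 0.13 in wild type embryos (SD), a difference of -0.13 ± 0.049 (SE, adjusted permutation p = 0.0489). As the pair was added with both values known, this p is no independent evidence either.

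Of the 6 basement membrane chains, 0 were called in limma in either direction, beside 0.527% of all genes lower and 0.286% higher. An unadjusted p under 0.05 was reached by 0, beside 5.14% of all genes lower and 4.13% higher. At such shares 0 among 6 genes does not set the class apart. Of the 6 differences, 3 were below 0. Col4a1 and Col4a2, which encode the chains of the common type IV network and lie side by side on chromosome 8, were the most precisely measured. Col4a1 ran from 8.89 over a median of 8.97 to 9.07 in Nipbl+/- buds, against 8.91, 8.95 and 9.10 in wild type buds. The ranges coincided, and the 95% interval of the difference, -0.051 to 0.073, did not reach the -0.15 of Col3a1. Col4a2 ran from 8.56 over 8.66 to 8.72 in Nipbl+/- buds, against 8.60, 8.67 and 8.87 in wild type buds, a difference of -0.045 ± 0.031 (SE, adjusted p = 0.741). The difference between the neighbors, Col4a1 minus Col4a2, was 0.056 ± 0.026 (SE) and missed the threshold after adjustment (permutation p = 0.0433, adjusted p = 0.0564). Col4a3, Col4a4, Col4a5 and Col4a6, chains of the type IV networks of kidney and other specialized membranes, lay between -0.059 and 0.032. Col4a5 and Col4a6 lie on the X chromosome, and the sexes were unequally divided. The Col4a6 difference was -0.047, and 0.013 with embryo sex as a covariate. A wider class that adds Col7a1, Col15a1, Col17a1 and Col18a1 to the type IV chains also gave 0 calls of 10, with 1 lower at an unadjusted p under 0.05 and a median of -0.023.

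Of the 18 other collagens, 1 was called lower (5.56%, beside 0.527% of all genes) and 0 higher (beside 0.286%). Their median difference was -0.064, and -0.038 without the 4 wild type embryos high in Dcn. Col23a1, one of 4 transmembrane collagens, ran from 8.27 over a median of 8.45 to 8.55 in Nipbl+/- buds, against 8.44, 8.58 and 8.70 in wild type buds. All 12 Nipbl+/- embryos lay below the wild type mean, and the groups overlapped between 8.44 and 8.55. The difference was -0.16 ± 0.039 (SE), a ratio of 0.895, with an adjusted p of 0.0466. This call sat at the threshold, was made in 7 of 13 settings and was lost, among others, with embryo sex as a covariate (adjusted p = 0.146), without wild type embryo 3 (adjusted p = 0.068) and without the 4 wild type embryos high in Dcn (adjusted p = 0.121), while the difference stayed between -0.17 and -0.15 in all 13 settings. The other transmembrane collagens, Col13a1, Col17a1 and Col25a1, had differences between -0.075 and -0.034.

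Members that passed only the wider level of 0.25 included Col26a1 and Col15a1. Col26a1, a secreted collagen first found in testis and ovary, ran from 10.30 over 10.54 to 10.68 in Nipbl+/- buds, against 10.54, 10.65 and 10.82 in wild type buds. Of the 12 Nipbl+/- embryos, 11 lay below the wild type mean (difference -0.13 ± 0.041, SE, adjusted p = 0.172). Leaving out the 4 wild type embryos high in Dcn gave a Col26a1 difference of -0.14 (limma, adjusted p = 0.45). Col15a1, a proteoglycan collagen next to basement membranes, ran from 8.22 over 8.46 to 8.60 in Nipbl+/- buds, against 8.45, 8.54 and 8.70 in wild type buds. For Col15a1 6 Nipbl+/- embryos lay below every wild type embryo (difference -0.12 ± 0.041, SE, adjusted p = 0.243). Leaving out the same 4 wild type embryos gave a Col15a1 difference of -0.12 (limma, adjusted p = 0.629). The Col15a1 relative Col18a1, the source of endostatin, had a difference of -0.012 ± 0.044 (SE). Col10a1, the collagen of hypertrophic cartilage, had a difference of -0.12 ± 0.050 (SE) at a level under the olfactory receptor bound.

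The 6 chains of the beaded filament collagen VI, which links cells to the surrounding fibrils, gave 0 calls and 0 at an unadjusted p under 0.05. All genes gave 0.527% called lower and 0.286% higher, and 5.14% lower and 4.13% higher at the unadjusted level. Col6a1, Col6a2 and Col6a3, which form the common type VI trimer, had differences of -0.092 ± 0.057, -0.061 ± 0.058 and -0.088 ± 0.068 (SE). Col6a4, Col6a5 and Col6a6, the later described alternatives to the Col6a3 chain, lay between -0.043 and 0.059. The short-chain genes Col8a1 and Col8a2, whose collagen lines vessels and the cornea, had differences of -0.016 and -0.12, and Col7a1 and Col28a1 had differences of -0.00066 and 0.047.

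Chains that are assembled into 1 trimer or 1 fibril were compared across embryos by the correlation of their deviations from the genotype means (11 pairs, 24 embryos, permutation tests with 100000 resamples, two-sided, Benjamini-Hochberg over the pairs). Among the type VI chains, Col6a1 and Col6a3 had a Pearson's r of 0.72 (permutation p = 0.00016, adjusted p = 0.00126) and a Spearman's rho of 0.74 (permutation p = 8e-05). Col6a1 and Col6a2, neighbors on chromosome 10, had an r of 0.71 (permutation p = 0.00023, adjusted p = 0.00126) and a rho of 0.65 (permutation p = 0.00095). Without the 2 embryos farthest from the median the values of r were 0.67 and 0.60. Within genotypes r was 0.67 in Nipbl+/- and 0.79 in wild type embryos for Col6a1 and Col6a3, and 0.84 in Nipbl+/- and 0.59 in wild type embryos for Col6a1 and Col6a2. With each array's median set to 0, r was 0.58 for Col6a1 and Col6a3 (permutation test, adjusted p = 0.00966). In that setting it was 0.54 for Col6a1 and Col6a2 (permutation test, adjusted p = 0.0143). Col6a1 thus varied together with Col6a2 and with Col6a3 beyond the difference between genotypes, less closely once array brightness was removed. Correlations of unrelated genes were not measured for comparison. Col2a1 and Col9a1, whose products share the cartilage fibril, had an r of 0.65 (permutation p = 0.00112, adjusted p = 0.00411), a rho of 0.64 (permutation p = 0.0019) and an r of 0.59 without the 2 farthest embryos. Within genotypes this r was 0.42 in Nipbl+/- (permutation p = 0.181) and 0.76 in wild type embryos (permutation p = 0.00338).

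Col1a1 and Col1a2 had an r of 0.57 (permutation p = 0.00283, adjusted p = 0.00778) and a rho of 0.56 (permutation p = 0.00587). Without the 2 embryos farthest from the median of Col1a1, r was 0.41 (permutation test, adjusted p = 0.118). Leaving out extreme embryos narrows the range and can by itself lower r. Whether the relation rests on those embryos therefore cannot be decided. Within genotypes r was 0.45 in Nipbl+/- (permutation p = 0.146) and 0.70 in wild type embryos (permutation p = 0.0118). Not every pair of partner chains varied together. Col5a1 and Col5a2 had an r of -0.055 (permutation p = 0.805) and a rho of -0.16 (permutation p = 0.472), and Col9a1 and Col9a3 an r of 0.18 (permutation p = 0.4) and a rho of 0.14 (permutation p = 0.526). Col4a1 and Col4a2 had an r of 0.40 (permutation p = 0.0625, adjusted p = 0.0982) and a rho of 0.44 (permutation p = 0.0342), with an r of 0.34 without the 2 farthest embryos. With each array's median set to 0 their r was 0.70 (adjusted p = 0.00077), so the value depended on how array brightness was treated. Col3a1 and Col5a2, also genomic neighbors, had an r of 0.48 (permutation p = 0.0236, adjusted p = 0.052), a rho of 0.38 (permutation p = 0.0725) and an r of 0.25 without the 2 farthest embryos. Col12a1 did not pass with either partner, at r = 0.34 with Col1a1 (permutation p = 0.119, rho 0.34, permutation p = 0.11) and r = -0.40 with Col14a1 (permutation p = 0.0584, rho -0.37, permutation p = 0.0803). Col2a1 and Col11a1 had an r of 0.34 (permutation p = 0.0754) and a rho of 0.41 (permutation p = 0.0438, adjusted p = 0.0803).

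**Figure D4:**
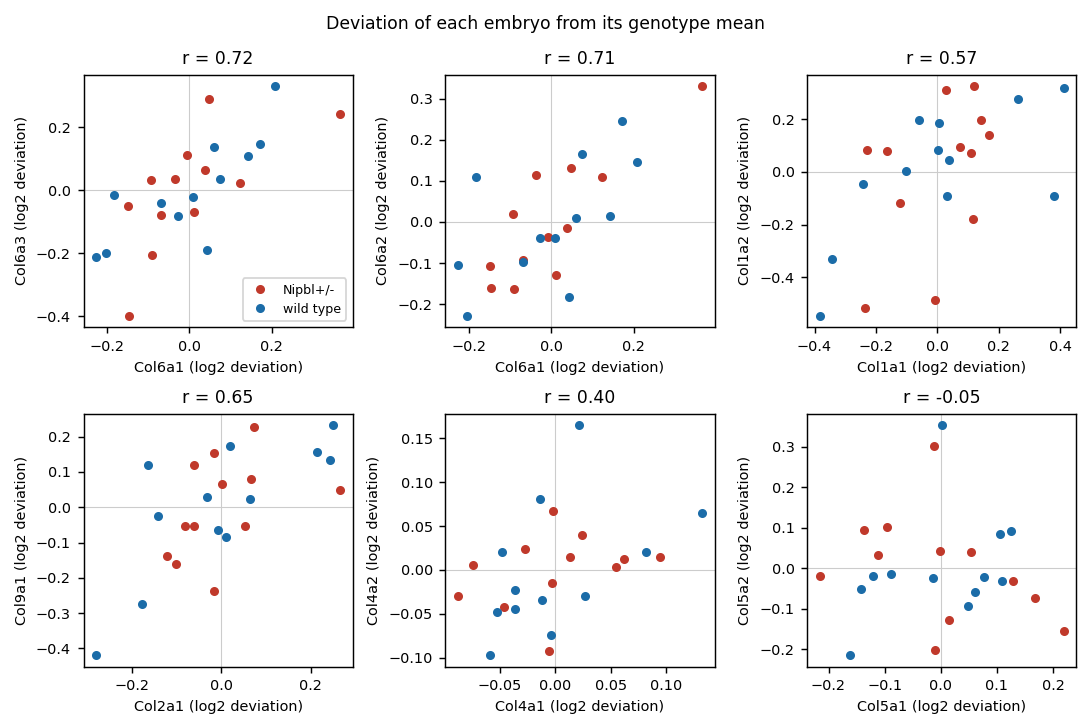
Deviation of each embryo from its genotype mean (log2) for 6 pairs of collagen genes, with Pearson's r over 24 embryos above each panel (Nipbl+/- red, wild type blue). The type VI pairs rise together at r = 0.72 and 0.71, and the type V pair shows no slope.

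The collagen genes lie partly in clusters, with 8 adjacent pairs that hold 15 of the 44 genes. Of these 15, 0 were called in limma, beside 0.527% of all genes lower and 0.286% higher. At an unadjusted p under 0.05, 1 was lower, namely Col3a1, beside 5.14% of all genes. Such counts do not set the clustered genes apart from all genes. The adjacent type III and V genes Col3a1 and Col5a2 had differences of -0.15 and -0.019.

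Genes that act on collagens were read from the same comparison, in which 0.527% of all genes were called lower and 0.286% higher, and 5.14% were lower and 4.13% higher at an unadjusted p under 0.05. Of 18 genes that modify collagen chains or move them out of the cell, 0 were called in limma, with 2 lower and 3 higher at an unadjusted p under 0.05. P4ha1, a subunit of the prolyl hydroxylase that stabilizes the triple helix, had a ratio of 1.12 (adjusted p = 0.145), and P3h3, a prolyl 3-hydroxylase family member, a ratio of 0.900 (adjusted p = 0.271). Of 11 genes that process procollagen or cross-link fibrils, 0 were called and 1 was lower at an unadjusted p under 0.05, namely the cross-linking enzyme Loxl1 (ratio 0.879, adjusted p = 0.439). Tll1, a procollagen C-proteinase, had the next smallest p (ratio 0.934, adjusted p = 0.647). Of 9 collagen receptors, 0 were called and 0 passed an unadjusted p under 0.05, with Ddr1 at a ratio of 1.07 (adjusted p = 0.639) and the integrin gene Itga11 at 0.940 (adjusted p = 0.840). Of 6 matrix metalloproteinase genes, 0 were called and 2 were lower at an unadjusted p under 0.05, Mmp16 (ratio 0.895, adjusted p = 0.208) and Mmp14 (ratio 0.918, adjusted p = 0.451).

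Among 13 partners of collagen fibrils, 1 was called lower (7.69%, beside 0.527% of all genes) and 0 higher. At an unadjusted p under 0.05, 4 were lower (30.8%, beside 5.14% of all genes) and 0 higher. They were Bgn, Fn1, Lum and the matrix protein gene Tgfbi (ratio 0.877, adjusted p = 0.311). Bgn, the fibril-binding proteoglycan biglycan, ran from 9.23 over 9.46 to 9.69 in Nipbl+/- buds, against 9.61, 9.77 and 9.88 in wild type buds. In Bgn, 10 of 12 Nipbl+/- embryos lay below every wild type embryo, and the difference was -0.28 ± 0.050 (SE, ratio 0.823, adjusted p = 0.00255). Bgn lies on the X chromosome, the sexes were unequally divided, and its value is given from the main comparison only. Fn1, the fibronectin on which collagen fibrils assemble, had a ratio of 0.906 (adjusted p = 0.114), and Lum, whose mean levels of 5.56 in Nipbl+/- and 6.28 in wild type buds lay under the olfactory receptor bound, had an adjusted p of 0.268. Of 3 transcription factor genes of cartilage formation, 0 were called, and 1, Sox9, was lower at an unadjusted p under 0.05. Sox9, the activator of Col2a1, had a difference of -0.24 ± 0.10 (SE, adjusted p = 0.394), and Sox6, its partner factor, had a difference of -0.065 ± 0.054 (SE, adjusted p = 0.810).

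Markers of the cell types that a hindlimb bud can hold were compared as well, against the same 0.527% of all genes called lower and 0.286% higher. The 4 limb mesenchyme markers Prrx1, Prrx2, Twist1 and Msx1 were present in every array and gave 0 calls, with mean levels of the list between 11.21 and 11.35 in Nipbl+/- buds and between 11.22 and 11.34 in wild type buds. The 2 hindlimb markers, Pitx1 and Tbx4, gave 0 calls. The forelimb marker Tbx5 ran from 5.32 over a median of 5.63 to 6.33 in Nipbl+/- buds, against 5.18, 5.86 and 6.70 in wild type buds. Both medians lay under the olfactory receptor bound, and the highest embryo of each group lay above it. Of 8 endothelial markers 0 were called, with list means between 9.50 and 9.80 in Nipbl+/- buds and between 9.44 and 9.84 in wild type buds. Lists for muscle precursors (4 genes), macrophages (5), erythroid cells (4) and trunk mesoderm (5) also gave 0 calls. At an unadjusted p under 0.05, 5.14% of all genes were lower and 4.13% higher. At that level the mesenchyme, hindlimb, endothelial and erythroid lists had 0 members. The muscle list had 1 higher, the macrophage list 2 lower and the trunk list 1 lower. All 5 macrophage markers had differences below 0, beside 53.5% of all genes. Their list means lay between 6.69 and 6.90 in Nipbl+/- buds and between 6.78 and 6.97 in wild type buds. Of 8 ectoderm markers 1 was called lower, the keratin gene Krt5 (difference -0.31, adjusted p = 0.00171), and the epithelial adhesion gene Epcam was higher at an unadjusted p under 0.05 (difference 0.15). The median difference of the ectoderm list was 0.011, with list means between 9.22 and 9.54 in Nipbl+/- buds and between 9.26 and 9.46 in wild type buds. Of 3 Schwann cell and nerve markers 1 was called higher, the receptor gene Erbb3 (difference 0.25, adjusted p = 0.0499), with list means between 7.05 and 7.52 in Nipbl+/- buds and between 7.06 and 7.35 in wild type buds. The part of these cell types in the collagen differences was not tested.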

How the data were processed

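Hindlimb bud RNA of 12 Nipbl+/- and 12 wild type embryos was hybridized to Affymetrix Mouse Gene 1.0 ST arrays, 1 embryo per array. The deposited values are log2 intensities that the authors made from the scanner files in GenePattern (Expression File Creator); the submitters' processing notes name RMA, with a version not given in the sources used here. Only that value table was used. Array medians still ran from 7.24 to 7.39, and setting them to 0 was one alternative. The number of embryos limits the precision.

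Of 28159 probe sets, 21640 carried 1 gene symbol in the platform annotation, 1321 several and 5198 none that was listed. Those with 1 symbol gave 19937 genes, each represented by its brightest probe set over the 24 arrays. Genotypes were compared with limma 3.58.1 (R 4.3.3; lmFit and eBayes, two-sided), and p-values were adjusted over all genes by Benjamini-Hochberg, with a threshold of 0.05. The study's methods name the Comparative Marker Selection module of GenePattern but no statistic. On simulated data with 19937 genes, 38% of genes with a true log2 change of 0.2 were recovered, 92% at 0.3, 98% at 0.45 and 100% at 0.65, with 8 false calls. The simulated noise was independent between genes and arrays. In the real arrays the first component held 34.34% of the residual variance, so these rates may be too favorable for them. Correlations and within-embryo differences used permutation tests (scipy 1.17.1, 100000 resamples).

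Named were the collagens with an adjusted p under 0.25, the 3 with the smallest p in each class and those of 11 chain pairs. In each related list those called, or else the 2 with the smallest p, were named. Dcn, Fn1, Lum, Tgfbi, Epcam, the markers and the remaining collagens are given as well, some of them chosen after their values were seen. The members and lists were chosen with earlier results of these data known. Fkbp10, Adamts2, Loxl2, Gp6 and Ddx3y were not analysed here. Protein features of the collagens, which had been planned, were not run. Alternatives were the mean of probe sets, no dim genes, a trended and robust variance, Welch's t-test on linear values, array weights, a replicate block, embryo sex, array medians set to 0, a threshold of 0.25 and, added after the data were seen, leaving out embryos that stood apart.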

Additional observations from a re-analysis of the deposited data

How the results depend on the processing

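Col12a1 kept its call in all 13 settings (adjusted p 0.00027 to 0.0499). The number of collagens called lower was 2 in the main comparison, 1 with the embryo sex covariate, with a trended and robust variance and without the 4 wild type embryos high in Dcn, 3 with array weights, the t-test on linear values and without dim genes, and 6 at an adjusted p under 0.25; 0 were called higher in any setting. In the fibrillar class 1 gene, Col3a1 or Col1a2, was called in place of 0 with array weights, the replicate block, the t-test on linear values, without dim genes, without wild type embryo 3 and without both arrays that stand apart, and 2 at 0.25. Among the other collagens 0 in place of 1 were called with the sex covariate, the replicate block, the trended and robust variance, without the 4 embryos, without wild type embryo 3 and without both arrays, and 3 at 0.25. The labels do not say whether the replicate numbers pair the embryos. Same-numbered embryos had a residual r of -0.355 to 0.282 over all genes, over 0.1 in 5 of 12. Embryos of other numbers had -0.594 to 0.593, and 1 Nipbl+/- embryo was closest to its own number. The first component held 34.34% of the residual variance, so these values cannot decide the pairing. With the replicate block 121 genes were lower and 48 higher, and Col1a2 passed (adjusted p = 0.014). The within-embryo differences Col12a1 minus Col14a1 (-0.37, adjusted p = 0.0166) and Col12a1 minus Col1a1 (-0.26, adjusted p = 0.0168) passed there too. Both also passed with embryo sex (-0.53 and -0.34, adjusted p = 0.0159 each). Over all genes, 105 lower and 57 higher calls became 180 and 101 with array weights, 67 and 37 with array medians set to 0, 38 and 18 without the 4 embryos, and 97 and 35 with embryo sex. Small differences that changed sign were Col4a6 (0.013 with embryo sex, 0.011 without the 4 embryos) and Col5a2 (0.0041 with array weights, 0.0019 with embryo sex). The median of the basement membrane chains was -0.017, and 0.0059 without the 4 embryos. Correlations that no longer passed were Col1a1 and Col1a2 without the 2 farthest embryos (0.41) and within Nipbl+/- (0.45), Col6a1 and Col6a3 within Nipbl+/- (0.67), Col2a1 and Col9a1 within Nipbl+/- (0.42) and Col6a1 and Col6a2 within wild type (0.59). Those that passed were Col2a1 and Col11a1 (0.44) and Col3a1 and Col5a2 (0.48) with embryo sex removed, and Col3a1 and Col5a2 (0.60) and Col4a1 and Col4a2 (0.70) with array medians set to 0. Signs turned for Col5a1 and Col5a2 (0.038 without the 2 farthest embryos, 0.35 within wild type) and for Col9a1 and Col9a3 (-0.057 within Nipbl+/-, -0.054 with array medians set to 0). The cause of these changes was not tested.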
